A study of Mus musculus with 3 samples.

Results

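The 4 genes TRBD1, TRBD2, TRBC1 and TRBC2, the diversity and constant genes of the T cell receptor beta (TRB) locus, were examined in T cells from inflamed mouse nerve. They were found by name in the columns for the D and C gene of every productive TRB contig, an assembled receptor transcript, of a barcode called as a cell. The 6597 contigs formed 3872 rearrangements, each a V gene, a nucleotide CDR3 (the junction at which V, D and J meet) and a J gene within a library. A D gene was called in 857 of the 3872 and a single C gene in 3842. All counts are of rearrangements unless cells or contigs are named, so that a large clone counts once if its contigs carry the same V gene name. For 62 junctions, described below with the V genes, contigs of the same library carried different V gene names. Each name then counts as a rearrangement of its own, and the cells are divided between the names.

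The cells were CD45+ cells sorted from the sciatic nerves of neuropathic NOD.AireGW/+ mice, which carry 1 mutated copy of the autoimmune regulator gene Aire on the autoimmunity-prone NOD background and develop autoimmune neuropathy spontaneously. There was 1 condition and no control group. Replicates 1 and 2 were 1 mouse each, and replicate 3 pooled 2 mice, which could not be separated. The ages of the mice were not given in the labels. Single-cell TCR sequencing on the 10X platform gave 2374, 3555 and 705 cells, of which 2253, 3361 and 642 had a productive TRB, with 1302, 2033 and 537 rearrangements. The TRB contigs held 21428, 27847 and 3457 unique molecular identifiers (UMIs, which mark single transcripts). Replicates 1 and 2 shared 7 cell barcodes, replicates 2 and 3 shared 3 and replicates 1 and 3 shared none, and no shared barcode had the same TRB CDR3.

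A TRB gene is assembled by joining a D gene to a J gene and then a V gene to the joined DJ. The locus holds its D, J and C genes as 2 successive clusters, each with 1 D gene, a row of J genes and 1 C gene. Because joining deletes what lies between, TRBD1 can reach the J genes of both clusters, while TRBD2 lies downstream of TRBJ1 and can reach only TRBJ2. The C gene is not joined in the DNA but is spliced to the J gene in the transcript, and the nearest C gene downstream is used, so that TRBJ1 is followed by TRBC1 and TRBJ2 by TRBC2. The D gene is trimmed at both ends and flanked by untemplated bases, and can be read in any frame.

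On the mm10 (GRCm38) reference, the 4 genes lay on the plus strand of chromosome 6. TRBD1 was at chr6:41533201-41533212 and TRBD2 at chr6:41542163-41542176, and TRBC1 spanned chr6:41538218-41539881 and TRBC2 chr6:41546730-41548352. The genes TRBJ1-1 to TRBJ1-7 lay between TRBD1 and TRBC1, and TRBJ2-1 to TRBJ2-7, of which TRBJ2-6 is annotated as a pseudogene, between TRBD2 and TRBC2. The D genes are shown because their 12 and 14 bases are all that a D call can rest on. They began with the same 5 bases and both ended in a run of G and a C, and the capitals mark where they differ.
TRBD1: gggacAgggggc
TRBD2: gggacTGGgggggc

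**Figure D1:**
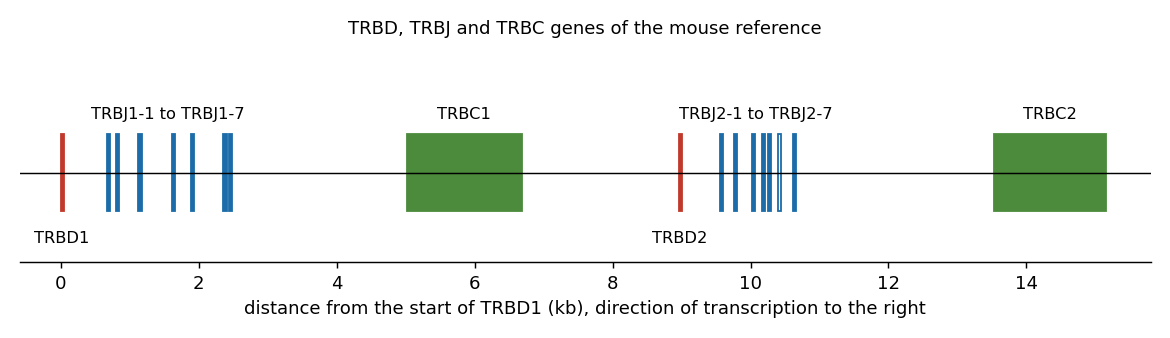
Map of the TRBD (red), TRBJ (blue) and TRBC (green) genes of the reference, with positions to scale and the shortest genes widened to be visible, as distance from the start of TRBD1 in kb along the direction of transcription; the open blue box is the pseudogene TRBJ2-6. TRBD2 lies downstream of every TRBJ1 gene and of TRBC1.

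The C genes were close to identical where transcripts begin to read them. Their first exons (chr6:41538218-41538592 and chr6:41546730-41547104) had 375 bases each and differed at 1 base, base 260, so that the first 259 bases were the same. The 30 bases around it are shown, at chr6:41538462-41538491 for TRBC1 and chr6:41546974-41547003 for TRBC2, with the base that differs in capitals.
TRBC1: ctggcacaatcctcgCaaccacttccgctg
TRBC2: ctggcacaatcctcgAaaccacttccgctg
The reference is C57BL/6J and the mice were NOD, whose alleles were not read here.

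TRBC2 was the C gene of most rearrangements, D genes were called in a minority, and TRBD1 was called more often than TRBD2. In replicates 1, 2 and 3, TRBC2 took 67.4% (872 of 1293, exact 95% interval 64.8-70.0), 64.8% (1306 of 2016, 62.7-66.9) and 67.9% (362 of 533, 63.8-71.9), with a mean of 66.7% ± 1.69 (SD, n = 3). A D gene was called in 21.7% (283 of 1302), 22.1% (449 of 2033) and 23.3% (125 of 537), a mean of 22.4% ± 0.808. Of the rearrangements with a D call, TRBD2 took 32.5% (92 of 283), 35.0% (157 of 449) and 38.4% (48 of 125), a mean of 35.3% ± 2.96. The libraries lay close together for each share, and their intervals overlapped. Of 18 Fisher's exact tests between pairs of libraries over 6 shares, 6 compared exceptions to the joining order with 0 or 1 counts and could show no difference. None of the other 12 had an unadjusted p under 0.05 (lowest 0.124), which does not show that the libraries were alike.

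**Figure D2:**
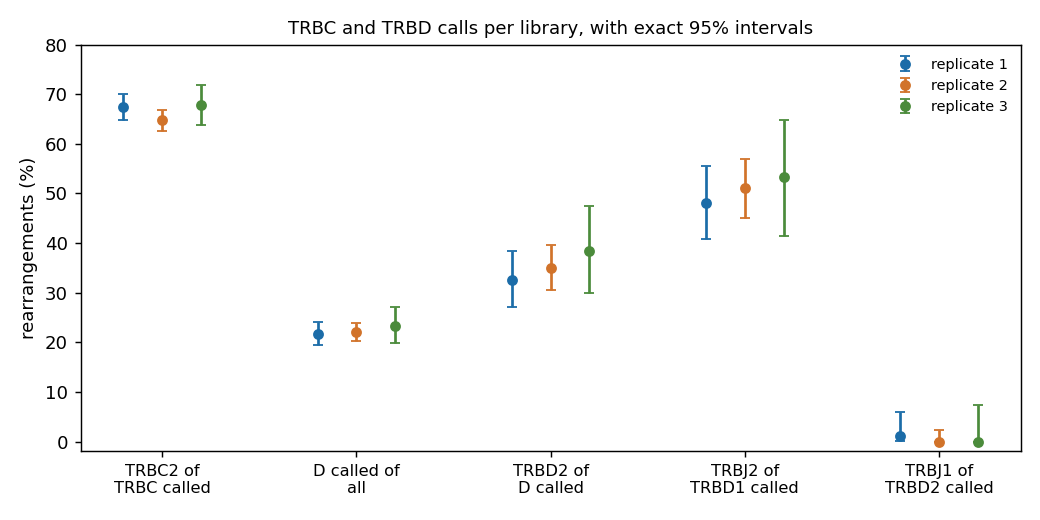
Percent of rearrangements (y axis) for 5 shares (x axis) in each of the 3 libraries; points are the share, bars the exact 95% interval, which covers counting error only. TRBC2 lies between 64.8 and 67.9%, the D call between 21.7 and 23.3%, TRBD1 is joined to TRBJ2 in 48.2 to 53.2%, and TRBD2 to TRBJ1 in at most 1.09%.

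TRBD1 was joined to either J cluster, and TRBD2 almost always to TRBJ2. Of the rearrangements called TRBD1, 48.2% (92 of 191), 51.0% (149 of 292) and 53.2% (41 of 77) held a TRBJ2 gene, a mean of 50.8% ± 2.55 (SD, n = 3). Of those called TRBD2, 1 of 92 held a TRBJ1 gene in replicate 1 (1.09%), 0 of 157 in replicate 2, which allows up to 1.91%, and 0 of 48 in replicate 3, which allows up to 6.25%. Over the libraries that was 1 of 297 (0.337%, exact 95% interval 0.00852-1.86), where 96.3 would be counted if both D genes used TRBJ1 at the same rate in each library. The conditional odds ratio was 0.00347 (exact 95% interval 8.71e-05 to 0.0198, two-sided exact test stratified by library, p = 4.68e-64). TRBD2-TRBJ1 is the combination that joining order does not allow. Whether the software took the J gene into account for the D call was not given in the sources used here. The test of deposited calls is therefore not an independent check of the order.

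The sequences of the most abundant rearrangement of each permitted combination in replicate 1 and of the exception show what the calls rest on. Capitals mark the longest run of the called D gene between the germline ends of V and J.
TRBV16-TRBD1-TRBJ1-1-TRBC1, 23 cells: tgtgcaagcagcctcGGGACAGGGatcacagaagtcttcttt
TRBV5-TRBD1-TRBJ2-7-TRBC2, 15 cells: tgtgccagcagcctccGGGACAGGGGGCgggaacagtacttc
TRBV3-TRBD2-TRBJ2-3-TRBC2, 10 cells: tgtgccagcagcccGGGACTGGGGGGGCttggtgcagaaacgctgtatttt
TRBV13-2-TRBD2-TRBJ1-2-TRBC1, 1 cell: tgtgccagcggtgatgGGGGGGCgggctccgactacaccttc
The first held 9 bases of TRBD1, the second all 12, and the third all 14 bases of TRBD2. The exception, in 1 cell with 9 UMIs, held 7 bases of TRBD2 in that stretch against 6 of TRBD1, a difference of 1 G in a run. Counting into the bases that also match the end of TRBV13-2, it held 9 bases of TRBD2. In replicate 2 the most abundant rearrangements of the 3 combinations were TRBV31-TRBJ1-2 with TRBD1 (14 cells, 8 bases), TRBV12-2+TRBV13-2-TRBJ2-2 with TRBD1 (14 cells, 8 bases) and TRBV5-TRBJ2-7 with TRBD2 (31 cells, 11 bases). In replicate 3 they were TRBV19-TRBJ1-4 with TRBD1 (14 cells, 9 bases), TRBV17-TRBJ2-4 with TRBD1 (4 cells, 10 bases, tied with 1 other) and TRBV3-TRBJ2-3 with TRBD2 (4 cells, 11 bases).

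Every rearrangement with a C call paired TRBJ1 with TRBC1 and TRBJ2 with TRBC2. Exceptions numbered 0 of 1293, 0 of 2016 and 0 of 533, which allow up to 0.232%, 0.149% and 0.563%. Among all 18045 TRB contigs with a TRBJ and a C gene, also those outside cells and the nonproductive ones, there were 0. Contigs repeat the same rearrangements and are not independent counts, so no upper limit is given for them. This pairing was not an independent check of splicing. In the 4190 productive consensus TRB chains with a C call, the median length after the end of J was 98 bases and the longest 170, and none of them reached base 260, where the reference C genes first differ. Whether the software took the J gene into account was not given in the sources used here, so the C call and the J cluster cannot be told apart, and each share given for TRBC2 was also that of TRBJ2.

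Where the C gene was missing, the contig was shorter and rested on fewer transcripts. The 44 contigs without a C call (0.667% of 6597) had a median length of 482.5 bases, against 547 with one, and a median of 2, 1 and 1 UMIs in the 3 libraries, against 7, 6 and 4. A missing C call was also more frequent with TRBJ1 than with TRBJ2. It was found in 12 of 1042 against 4 of 1973 rearrangements without a D call. With TRBD1 it was 4 of 278 against 1 of 282, and the difference was not tested. Among 783 rearrangements with more than 1 contig, 0 had both TRBC1 and TRBC2, 0 had more than 1 D call, and 19 had a C gene in some contigs and none in others. Contigs of a rearrangement share their V gene, CDR3 and J gene by definition, so agreement between their D or C calls is no independent check. Contigs with TRBC1 and TRBC2 had the same median of 7 UMIs in replicate 1 and of 6 in replicate 2, and 5 and 4 in replicate 3.

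TRBC1 chains differed from TRBC2 chains in how many assembled bases followed J. Of the 1448 TRBC1 consensus chains, 1390 ran for 98 bases after J and 51 (3.52%, exact 95% interval 2.63-4.61) for exactly 170, or 72 more, while no chain with a C call had any other length above 98. By library, the longer form made up 19 of 470 (4.04%), 26 of 807 (3.22%) and 6 of 171 (3.51%). Of the 2742 TRBC2 chains, 2735 ran for 98 bases and 0 for 170, which allows up to 0.109%. The 51 chains came from 48 rearrangements with 17 V genes, and 12 were called TRBD1. They held every TRBJ1 gene found with TRBC1: TRBJ1-4 in 28 of its 349 chains (8.02%), TRBJ1-6 in 6 of 133 (4.51%), TRBJ1-5 in 4 of 115 (3.48%), TRBJ1-1 in 11 of 450 (2.44%), TRBJ1-3 in 1 of 191 and TRBJ1-2 in 1 of 210. This pattern was noticed in the data and no test was run on it.

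The lengths of single contigs gave the same number. Among 281 rearrangements with at least 2 TRBC1 contigs, 16 held a pair of contigs whose lengths differed by exactly 72 bases (7 of 89, 7 of 174 and 2 of 18), whereas other differences between 60 and 84 bases occurred in a median of 3 and at most 8. With TRBC2, 1 of 495 held a pair that differed by 72 bases. As background, a short alternative exon, C-beta-0, is known upstream of the first exon of mouse TRBC1 and is included in some transcripts. The bases of these contigs were not read here, so whether they hold it was not tested.

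**Figure D3:**
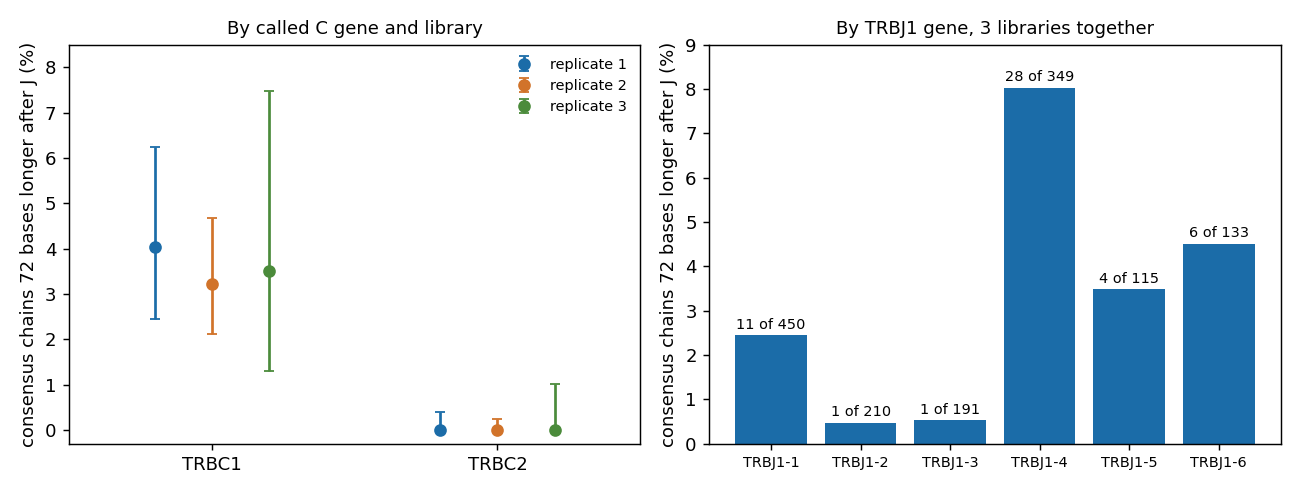
Percent of productive consensus TRB chains with 170 rather than 98 bases after the end of J (y axis), by called C gene and library with exact 95% intervals (left) and by TRBJ1 gene over the 3 libraries (right, bars from 0, with counts above). All 51 such chains were TRBC1 chains, 3.22 to 4.04% of them per library, and 28 held TRBJ1-4.

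The D genes were not called at the same length of match, and some junctions without a call held long runs of a D gene. Each CDR3 was trimmed of its germline V and J ends and the longest run shared with each D gene was found. This was possible for 3735 of the 3872 rearrangements. With at least 5 bases and a longer run than for the other D gene, 1443 (38.6%) matched TRBD1 and 1168 (31.3%) TRBD2, 216 (5.78%) matched both equally, and 908 (24.3%) held no run of 5 bases. Rearrangements without a call had a median run of 6 bases, and 583 of 2924 (19.9%) held at least 8. TRBJ1 was found with 19.0% of best matches to TRBD2 of 5 bases. If the joining order is taken as given, those short runs that were joined to TRBJ1 arose without TRBD2. For runs joined to TRBJ2 the order does not settle the origin. Those called TRBD1 had a median run of 9 and those called TRBD2 of 11.

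Of rearrangements with at least 8 bases of TRBD1, 397 of 527 (75.3%) were called TRBD1, whereas of those with at least 8 bases of TRBD2, 264 of 746 (35.4%) were called TRBD2, 29 were called TRBD1 and 453 had no call. By library the share was 73.5%, 76.8% and 74.3% for TRBD1 and 30.5%, 37.6% and 39.1% for TRBD2, so the ranges did not overlap. The lengths at which calls set in also differed. With 8 bases, 53.2% of 171 TRBD1 matches and 7.83% of 230 TRBD2 matches had their own gene called. With 9 bases the shares were 85.9% of 163 and 19.1% of 136, with 10 bases 83.9% of 112 and 37.7% of 122, and with 11 bases 83.9% of 56 and 48.6% of 107. All 25 rearrangements with the whole TRBD1, and all 65 with 13 or 14 bases of TRBD2, had their own gene called.

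**Figure D4:**
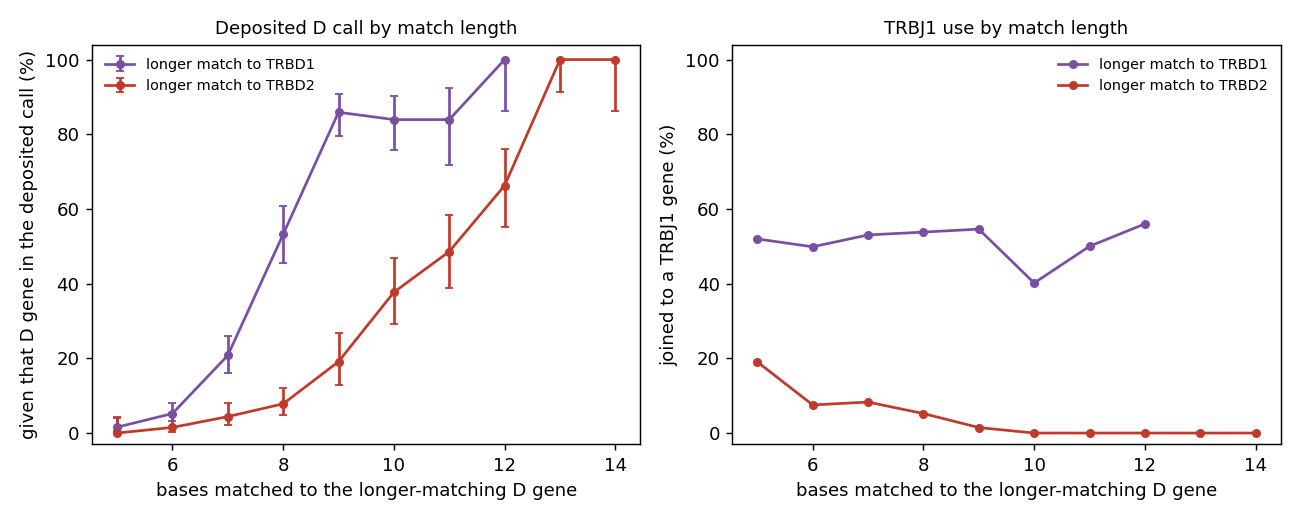
Left, percent of rearrangements given the D gene they match best (y axis) by the number of bases matched (x axis), over 3 libraries with exact 95% intervals. Right, percent joined to a TRBJ1 gene by the same number of bases. With 9 bases, 85.9% of TRBD1 and 19.1% of TRBD2 matches were called, and TRBJ1 took 54.6% of the former and 1.47% of the latter.

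Calls that went against the bases were mostly of TRBD1 in place of TRBD2. Of rearrangements called TRBD1 and joined to TRBJ2, 37 of 271 held a longer run of TRBD2 than of TRBD1 (at least 5 bases), and 29 of these held 8 or more (7, 16 and 6 by library). Of those called TRBD1 and joined to TRBJ1, 0 of 263 did, and 1 of 276 called TRBD2 and joined to TRBJ2 held a longer run of TRBD1. The first 2 sequences below were called TRBD1 with 11 bases of TRBD2, of 7 such rearrangements, and the other 2 had no call with 12 bases, of 29. Capitals mark the TRBD2 run. They were chosen after their values were seen.
TRBV1-TRBJ2-7, replicate 3, 2 cells, called TRBD1: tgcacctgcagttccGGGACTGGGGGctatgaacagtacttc
TRBV19-TRBJ2-7, replicate 2, 1 cell, called TRBD1: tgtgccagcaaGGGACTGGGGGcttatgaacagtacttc
TRBV5-TRBJ2-7, replicate 2, 10 cells, no call: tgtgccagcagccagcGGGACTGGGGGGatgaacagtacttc
TRBV12-2+TRBV13-2-TRBJ2-5, replicate 1, 8 cells, no call: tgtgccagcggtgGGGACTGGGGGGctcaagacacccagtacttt
Both called TRBD1 hold the stretch ACTG, which TRBD2 has and TRBD1 lacks.

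Which D gene appeared to be used more within TRBJ2, where both can be joined, therefore depended on how D was assigned. By the deposited call, TRBD2 took 49.7%, 51.3% and 53.9% of TRBJ2 rearrangements with a D gene, a mean of 51.7% ± 2.12 (SD, n = 3). By a match of at least 5 bases, with equal runs of both D genes left out, it took 63.1%, 58.4% and 66.9% (62.8% ± 4.28). By one of at least 8 bases it took 74.2%, 72.7% and 77.0% (74.6% ± 2.19). In each library TRBD2 took more by match than by call. A run of a given minimum is easier to reach in the longer TRBD2, so none of these shares measures true use.

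With no use of the deposited call, TRBJ1 was rarer with long matches to TRBD2 than with short ones. TRBJ1 took 19.0% of rearrangements that matched TRBD2 best with 5 bases, 7.52% with 6, 8.29% with 7, 5.22% with 8 and 1.47% with 9. With 10 or more bases it took 0 of 380, which allows up to 0.789%. Of the matches to TRBD1 with 10 or more bases, 87 of 193 (45.1%) held a TRBJ1 gene.

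CDR3 length and the loss of D bases at each end are given by D gene, with the limit that both depend on how D was assigned. Within TRBJ2, the CDR3 of rearrangements called TRBD2 was longer than that of rearrangements called TRBD1 by 2.18 ± 0.561 bases (SE) in replicate 1, 2.06 ± 0.398 in replicate 2 and 2.64 ± 0.906 in replicate 3, a mean of 2.29 ± 0.306 (SD, n = 3). By matches of at least 8 bases the difference was 1.60 ± 0.317. Rearrangements called TRBD2 had longer runs, with a median of 11 bases against 9 for TRBD1, and the part of this in the difference was not tested. The reference TRBD2 is 2 bases longer than TRBD1. At matches of at least 8 bases, TRBD1 had lost a mean of 1.15 bases at its 5′ end when joined to TRBJ1 and 1.12 when joined to TRBJ2, and TRBD2 2.29, while the losses at the 3′ end were 1.66, 1.59 and 1.80. The minimum of 8 bases caps what can be lost, and caps it lower for the shorter TRBD1, so the losses of the 2 genes are given side by side and were not tested.

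D genes were read in all 3 frames. With at least 8 bases, frame 1, which starts at the first base of the D gene, was used by 188 of 527 TRBD1 rearrangements (35.7%), frame 2 by 150 (28.5%) and frame 3 by 189 (35.9%). For TRBD2 the counts were 237 (31.8%), 237 (31.8%) and 272 (36.5%) of 746. Frame 3 of TRBD2 took 36.3%, 35.7% and 39.1% in the 3 libraries, and frame 2 of TRBD1 29.7%, 27.6% and 28.6%.

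Expansion, being found in more than 1 cell of a library, did not differ past the threshold by D or C gene. Expanded were 20.1% of TRBC2 and 21.1% of TRBC1 rearrangements in replicate 1, 20.8% and 24.5% in replicate 2, and 13.3% and 10.5% in replicate 3. The odds ratio of TRBC2 against TRBC1 was 0.884 (0.748-1.05, exact test stratified by library, p = 0.148, adjusted p = 0.197 over 4 comparisons) and was below 1 in 2 of 3 libraries. Without replicate 2 it was 1.00 (exact test, p = 1.00). A D call against none gave 1.10 (0.906-1.33, exact p = 0.333). TRBD2 rearrangements were expanded in 17.4%, 21.0% and 8.33% and TRBD1 rearrangements in 26.2%, 24.3% and 11.7%, an odds ratio of 0.730 (0.499-1.06, exact p = 0.0935, adjusted p = 0.197) that was below 1 in 3 of 3 libraries. Within TRBJ2 it was 0.736 (0.478-1.13, exact test, adjusted p = 0.197). The unit of these tests is the rearrangement and not the mouse. Cells of a junction found under different V gene names are divided between rearrangements. With the V gene name left out of the rearrangement, TRBD2 against TRBD1 gave 0.676 (exact test, p = 0.0347, adjusted p = 0.139). Other alternatives also had an unadjusted p under 0.05. Contigs of at least 3 UMIs gave 0.629 (exact test, p = 0.0216, adjusted p = 0.0865). D by match of at least 5 bases gave 0.754 within TRBJ2 (exact test, p = 0.0203, adjusted p = 0.0813). The same match, without TRBJ1 rearrangements that match TRBD2, gave 0.797 (exact test, p = 0.0266, adjusted p = 0.0531), which was not planned. No expansion comparison passed the adjusted threshold under any alternative.

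**Figure D5:**
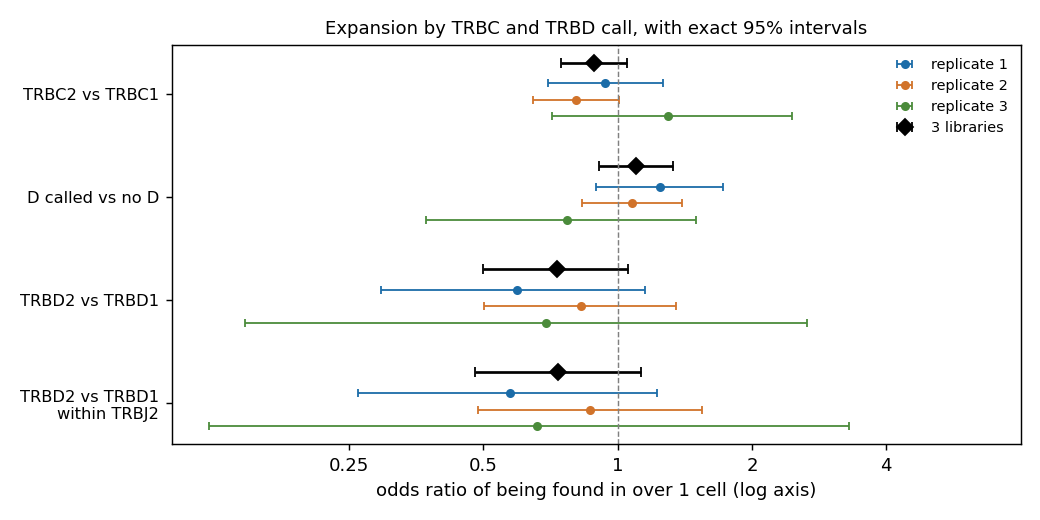
Odds ratios (x axis, log scale) of being found in more than 1 cell for the first-named against the second-named call; black diamonds are the 3 libraries together, coloured points single libraries, and bars exact 95% intervals. The 4 combined intervals all include 1, and TRBD2 against TRBD1 lies below 1 in each library.

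The largest clone of replicates 1 and 2 had no D call, and that of replicate 3 was called TRBD1. In replicate 1 the largest was TRBV19-TRBJ2-4-TRBC2 with 365 cells and no D call, whose junction held at most 2 bases of a D gene, and in replicate 2 TRBV5-TRBJ2-1-TRBC2 with 96 cells and no D call, which held 6 bases of TRBD1. In replicate 3 it was the TRBV19-TRBJ1-4-TRBC1 rearrangement of 14 cells called TRBD1. The study singled out a pair of expanded clonotypes, A and B. Rearrangements of replicate 2 with their TRB CDR3 residues are named here for that reason. For clonotype A, TRBV20-TRBJ2-7 with 29 cells was called TRBD2 and held 13 of its bases. For clonotype B, TRBV14-TRBJ2-7 with 23 cells and TRBV3-TRBJ2-7 with 17 had no D call, with 8 and 9 bases of TRBD2. The CDR3 residues of the latter 2 were also found with TRBV10-TRBJ2-7, in 2 cells with no D call, which was left out of the match. Rearrangements with the residues of clonotype B differ in V gene and bases, and which of them is the study's clone was not determined.
TRBV20-TRBJ2-7, 29 cells: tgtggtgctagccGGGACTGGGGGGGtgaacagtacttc
TRBV14-TRBJ2-7, 23 cells: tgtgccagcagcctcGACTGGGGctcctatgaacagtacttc
TRBV3-TRBJ2-7, 17 cells: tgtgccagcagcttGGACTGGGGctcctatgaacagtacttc
All 3 hold the stretch GACTGGGG in capitals, which is part of TRBD2. They were picked by CDR3 residues, all of which include DWG, and the latter 2 have the same residues. The shared stretch is therefore not an independent observation.

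J genes within each cluster were used unequally and in a similar order in the libraries. TRBJ2-7 was the most frequent J gene of TRBC2 rearrangements, with 31.2%, 30.7% and 26.8%, and TRBJ2-2 took 8.60%, 6.36% and 9.94%. Among TRBC1 rearrangements TRBJ1-1 took 29.2%, 29.9% and 38.0% and TRBJ1-4 30.2%, 21.5% and 22.2%. Whether TRBD2 and TRBD1 rearrangements used different TRBJ2 genes was tested for 6 genes, of which 0 were called (0.0%) at an adjusted p of 0.05 and 0 at an unadjusted one in the exact test stratified by library. Without replicate 2, 1 was called, TRBJ2-3 (exact test, adjusted p = 0.0204).

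V genes were compared between TRBC2 and TRBC1 rearrangements, which is a comparison of J clusters. Of 21 V genes tested, 1 was called (4.76%) at an adjusted p of 0.05, and 6 (28.6%) had an unadjusted p under 0.05. The gene called was TRBV12-2+TRBV13-2, a joint name for a pair of neighbouring V genes, with TRBC2 in 94 of 120, 147 of 217 and 50 of 61 rearrangements. Its odds ratio was 1.45 (1.14-1.85, exact test stratified by library, p = 0.0017, adjusted p = 0.0358) and was above 1 in 3 of 3 libraries. The call was lost without replicate 1 (odds ratio 1.32, exact test, adjusted p = 0.158) and without replicate 3 (1.35, adjusted p = 0.153), and replicate 2 left out gave 1.98 (adjusted p = 0.00414). It also rested on the name: 62 junctions carried this name in some contigs of a library and TRBV13-2 in others, and the contigs with the joint name were longer (medians of 566 to 570 bases against 523 to 536.5). With both names counted as 1, a choice made after seeing the data, the odds ratio was 1.16 (0.960-1.41, exact test, adjusted p = 0.214) and no V gene was called.

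Cells with a pair of TRB rearrangements could hold both C genes. Of 338 such cells with both C genes called, 176 (52.1%) held TRBC1 and TRBC2, 122 held TRBC2 on both chains and 40 TRBC1 on both. By library the mixed cells were 45 of 112, 126 of 216 and 5 of 10. Pairing chains at random by their shares would give 49.2, 104.3 and 4.55 cells, so the count was below that number in replicate 1 and above it in replicates 2 and 3. The unit here is the cell, so cells of 1 expanded clone repeat the same pair of chains. Doublets were not removed here either. The part of clones and of doublets in these counts was not tested.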

How the data were processed

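The data were single-cell TCR sequencing outputs (10X Genomics 5′ V(D)J) of sciatic nerve CD45+ cells of neuropathic NOD.AireGW/+ animals, 3 libraries from 4 mice, grouped by the series' labels as 1 condition. The authors ran Cell Ranger on mm10 (its version is not given in the sources used here), called cells, assembled contigs and deposited for each contig its V, D, J and C gene, its CDR3, its length and its counts of UMIs and reads. How D and C genes were called is likewise not given. Contig tables had 18 columns in replicate 1 and 31 in replicates 2 and 3, so software versions may have differed. The deposited clonotype tables were not used, and consensus tables were used for lengths after J.

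Productive TRB contigs of cell barcodes were grouped into rearrangements with the majority D and C call, and ties were left out. Intervals are exact Clopper-Pearson 95% intervals and cover counting error only, and the upper limit for a count of 0 is 3 counts of the total. D calls and C calls were compared with an exact two-sided conditional test stratified by library, with Benjamini-Hochberg adjustment over the 4 expansion comparisons, the 21 V genes with at least 10 rearrangements, or the 6 TRBJ2 genes. P-values are for counts of rearrangements of these libraries, taken as independent, and do not measure spread between mice. Germline genes were read from GRCm38 with GENCODE M21 coordinates. TRBV10 (137 rearrangements) was left out of the match, and TRBV12-2+TRBV13-2 was trimmed with the end of TRBV13-2. The test was checked on simulated data. Scripts ran in Python 3.11.15 with scipy 1.17.1, numpy 2.4.6, pandas 2.3.3 and matplotlib 3.10.9.

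Named were the 4 genes, the TRBJ genes, V genes called with the same direction in 3 libraries and exceptions to the joining order. Also named were the largest rearrangement of each library and of each combination in it. The last were rearrangements with the TRB CDR3 residues of clonotypes A and B of the study. The genes, lists and tests were chosen with earlier results of these data known. Alternatives were another definition of a rearrangement, at least 3 UMIs, cells with exactly 1 TRB, cells or consensus chains as the unit, D by match, over 2 or 5 cells as expanded, at least 20 rearrangements per gene, and each replicate left out.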

Additional observations from a re-analysis of the deposited data

Results flagged for a closer look

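Outside the barcodes called as cells, replicate 1 held 9 TRB contigs called TRBD2 with a TRBJ1 gene, and replicates 2 and 3 held none. All 9, of which 5 were productive and 4 were not, carried 1 junction of TRBV13-1 and TRBJ1-4, so they are not independent counts. Replicate 1 also had more productive TRB contigs outside cells, 6960 against 1413 and 542. The run in capitals is shared equally by TRBD1 and TRBD2 (6 bases each): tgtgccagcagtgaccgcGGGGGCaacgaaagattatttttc. The contigs had at most 3 UMIs, and contigs outside cells were used in no comparison of D genes.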

How the results depend on the processing

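No paired analysis was possible because all libraries were of 1 condition. Among 119 values under other settings, 105 were counted as unchanged. An odds ratio counted as unchanged if it kept its direction and its side of the threshold. A share had to move by no more than the SD between libraries. Counts of genes called among the 105 stayed equal, whichever gene was called, so a change of the gene is not seen in this number. Assigning D by a germline match changed the D shares. With at least 5 and at least 8 bases, 75.5% and 34.7% of the rearrangements that could be matched had a D gene. Ties, with equal runs of both D genes, were included there. With ties left out, TRBD2 took 46.3% and 59.4%, and TRBJ1 took 4.82% and 1.69% of the rearrangements matched to TRBD2. The expansion odds ratio of a D gene against none became 0.969 with at least 8 bases. That of TRBC2 against TRBC1 became 1.00 without replicate 2. The cause was not tested.

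Leaving out 1 replicate at a time, the TRBC2 share was 66.1 to 67.7%, the D called share 21.9 to 22.7%, the TRBD2 share 33.7 to 36.7%, the TRBJ2 share of TRBD1 49.6 to 52.1%, TRBD2-TRBJ1 exceptions 0.0 to 0.543% and TRBJ-TRBC exceptions 0.0%. Expansion odds ratios ranged from 0.852 to 1.00 for TRBC2 against TRBC1, from 1.03 to 1.14 for a D call against none, from 0.613 to 0.809 for TRBD2 against TRBD1 and from 0.590 to 0.836 within TRBJ2. The number of V genes called by TRBC gene ranged from 0 to 1, with TRBV17 in place of TRBV12-2+TRBV13-2 without replicate 1, and was 2 in cells with exactly 1 TRB (TRBV3 added) and 0 with the joint name counted as TRBV13-2. The number of TRBJ2 genes called by D gene ranged from 0 to 1. Over all alternatives, TRBD2 against TRBD1 stayed below 1 (0.417 to 0.829), with adjusted p from 0.0531 to 0.697. Replicate 3, with the fewest cells, gave the widest intervals.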
